A study of Mus musculus with 4 samples.

Results

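The vacuolar H+-ATPase (V-ATPase) and cathepsin genes were profiled across the cell types of mouse fracture callus. Members were the genes whose symbol begins with Atp6v or Atp6ap, or is Cts followed by a single letter. The symbols matched 44 of the 32285 genes in the count tables, of which 26 were V-ATPase genes and 18 were cathepsins. Callus cells came from male wild-type C57BL/6J mice, 3 months old, and were profiled as 4 single-cell RNA libraries at 4 and 7 days post fracture (dpf). Mice of the RA_4d and RA_7d libraries had repeated injections of K/BxN serum, which transfers arthritis by antibodies. Mice of the control_4d and control_7d libraries had vehicle. Each library was 1 pool of 4 calluses by the series description, while the methods state another number, and each condition had 1 library at each time. The RA model is a passive transfer of serum and has no autoimmune priming of the mice themselves.

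The V-ATPase is a rotary pump that uses ATP to move protons across membranes. Its V1 sector (subunits A to H) binds ATP on the cytoplasmic side, and its V0 sector (subunits a, c, c″, d and e) carries the protons through the membrane. In most cells it acidifies lysosomes and endosomes, where the cathepsins, a set of proteases, work. In osteoclasts it also sits in the ruffled border and acidifies the space above the bone, into which cathepsin K is secreted to cut collagen. Several subunits have paralogs of restricted expression, such as the a3 subunit (gene *Tcirg1*, whose symbol lies outside the rule) and the d2 subunit (*Atp6v0d2*), both known for their role in bone resorption.

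Cells were classed by marker genes, without clustering. After filtering, 25479 of 34038 barcodes were kept, with 83405494 to 156567619 UMIs per library and a median of 16093.5 to 17631.5 UMIs per cell. Osteoclast-like cells were those with at least 3 UMIs of *Mmp9*, 5 of *Acp5* and 3 of *Atp6v0d2*. The gate held 249 cells, with 69 at each time in control and, in RA, 105 at 4 dpf and 6 at 7 dpf. The 6 cells of RA_7d included 2 called doublets and had 6773 CPM of summed stroma markers, where the other libraries had 96.3 to 803, so osteoclast-like values rest on the other 3 libraries unless RA_7d is named. CPM are the UMIs (counted RNA molecules) of a gene in a class of a library, scaled so that all genes of that sum add to 1000000. The macrophage-like class held 6382 cells, the monocyte-like 506, the dendritic-like 438, the neutrophil-like 254 and the stroma-like 8461. Neutrophil-like cells numbered 18 in RA_7d, which was left out of their tests. Apart from *Atp6v0d2*, no member was a marker of any class. Of 25413 distinct barcodes of kept cells, 66 occurred in more than 1 library.

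The osteoclast-like label was checked on markers that the gate did not use. The osteoclast genes *Ocstamp*, *Dcstamp*, *Oscar*, *Itgb3*, *Calcr*, *Car2*, *Nfatc1*, *Tnfrsf11a* and *Jdp2* summed to 1970 to 2240 CPM in osteoclast-like cells and 212 to 294 CPM in macrophage-like cells, and none of the 9 was at 0. The same sum was 279 to 427 CPM in dendritic-like and 375 to 517 CPM in T or NK-like cells. The 9 macrophage markers, which chose the macrophage-like class, summed to 905 to 1239 CPM in osteoclast-like cells, with none at 0. Osteoclast-like cells were deeper, with a median of 36118 UMIs against 13022 in macrophage-like cells, and 86 further gated barcodes lay above the limit of 50000 UMIs. Of the gated cells, 170 would otherwise have been myeloid cells of no named class and 61 would have been unassigned.

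V-ATPase genes took the largest share of RNA in osteoclast-like cells and cathepsins the largest share in macrophage-like cells. The V-ATPase genes together made up 1.14% of UMIs in osteoclast-like cells of control_4d, 1.37% in control_7d and 0.984% in RA_4d, against 0.469% to 0.490% over the 4 macrophage-like sums. The share was 0.343% to 0.384% in monocyte-like, 0.294% to 0.301% in neutrophil-like, 0.225% to 0.271% in dendritic-like and 0.120% to 0.147% in stroma-like cells. The osteoclast-like values lay above those of every other class, with *Atp6v0d2* counted in them. That gene, which the gate required, made up 844, 985 and 673 of each 1000000 UMIs in control_4d, control_7d and RA_4d. Stroma-like values lay below those of every myeloid class. Endothelial-like cells had 0.128% to 0.137% and T or NK-like cells 0.105% to 0.122%. Cathepsins made up 1.37% to 1.60% of UMIs in macrophage-like cells, 0.694% to 1.10% in osteoclast-like cells and 0.199% to 0.255% in stroma-like cells. Without *Ctsk*, the osteoclast-like share was 0.232% to 0.292%, below the 0.549% to 0.606% of monocyte-like cells. These shares cannot separate more RNA of a gene from less RNA of all other genes in a cell.

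**Figure D1:**
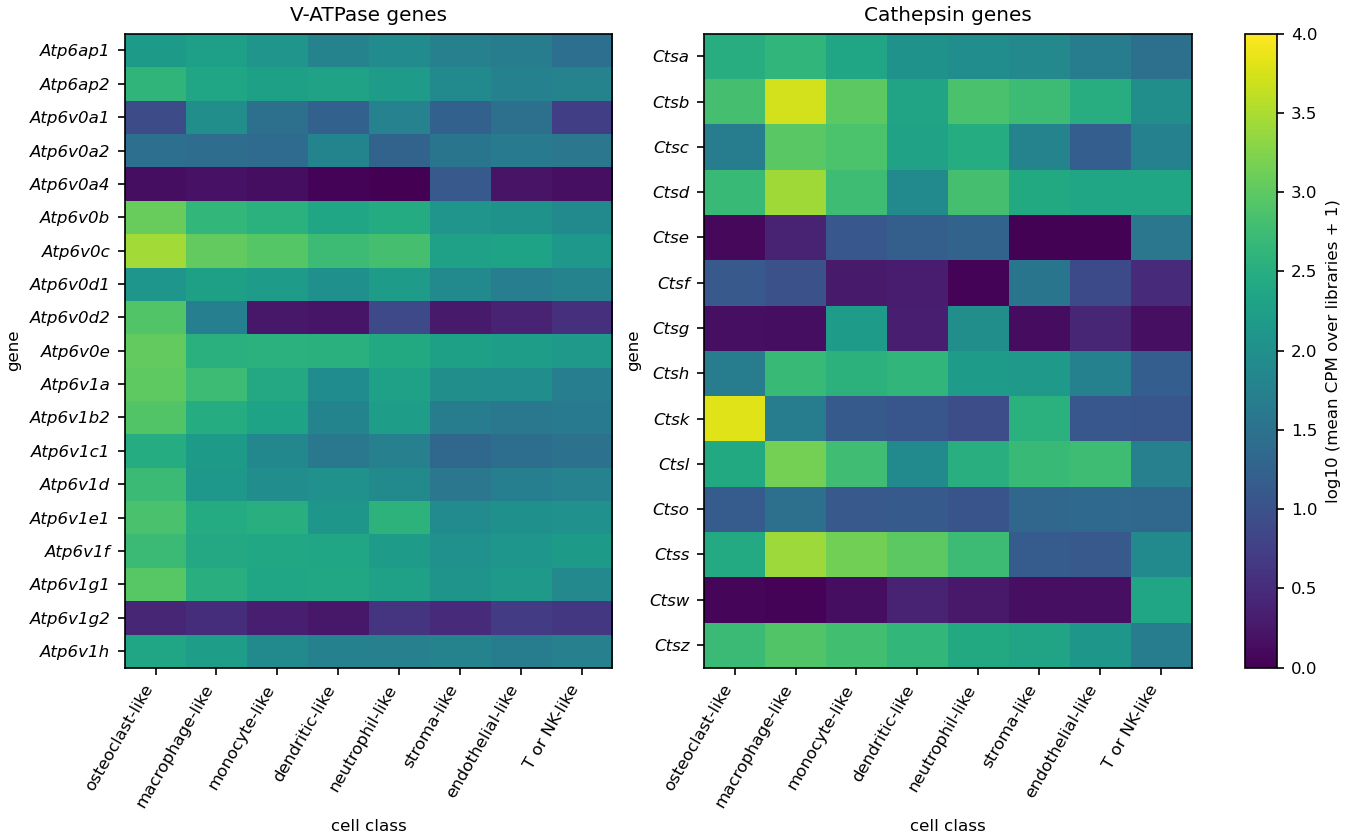
Mean level of each tested V-ATPase gene (left) and cathepsin gene (right) in 8 cell classes, as log10 of mean CPM over libraries plus 1; the color scale runs from 0 to 4. The osteoclast-like column is brightest for most V-ATPase genes and for *Ctsk*, and the macrophage-like column for *Ctsb*, *Ctsd*, *Ctss* and *Ctsl*.

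To compare osteoclast-like with macrophage-like cells, UMIs were summed per class and library and tested with edgeR over 13933 genes. A gene was called at an adjusted p under 0.05 (quasi-likelihood test, Benjamini-Hochberg adjustment) and a change of at least 2-fold. The 4 libraries differ in condition and time, and the library was kept as a block, which takes out differences that its classes share. The p-values measure the spread left across all class sums, with 19 residual degrees of freedom. Osteoclast-like cells gave 3 of these sums and macrophage-like cells 4. Of the members, 33 passed the filter on low counts, which a gene could pass through 1 class alone, and 31 reached 20 CPM in some class. *Atp6v0d2* chose the cells and has no test here. Of the other 18 V-ATPase genes, 9 were higher in osteoclast-like cells, 1 was lower and 8 were not called. Of 14 cathepsins, 1 was higher, 8 were lower and 5 were not called. Over all genes, 10.6% were called higher and 16.6% lower. The median log2 fold change was 0.93 over the V-ATPase genes, -1.79 over the cathepsins and -0.12 over all genes.

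Subunits of both sectors rose. *Atp6v1d*, which encodes subunit D of the central stalk, had 532 CPM in control_4d, 615 in control_7d and 444 in RA_4d in osteoclast-like cells, and 132 to 139 CPM in the 4 macrophage-like sums. It was 3.82-fold higher (log2 1.93 ± 0.11 SE, adjusted p = 3.68e-14 in edgeR), and the groups did not overlap. *Atp6v0e*, which encodes the small e subunit of V0, had 1116, 1274 and 880.5 CPM in the same 3 libraries and 301 to 367 CPM in macrophage-like cells. It was 3.14-fold higher (log2 1.65 ± 0.10, adjusted p = 8.86e-14). *Atp6v1b2*, the B subunit that shares in ATP binding, had 717, 950 and 827 CPM against 278 to 332 CPM and was 2.73-fold higher (adjusted p = 4.34e-10).

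The proton-carrying ring followed the same direction. *Atp6v0c*, which encodes the c subunit of that ring, had 2707, 3265 and 2341 CPM in osteoclast-like cells of control_4d, control_7d and RA_4d, against 1019 to 1157 CPM in macrophage-like cells. It was 2.42-fold higher (log2 1.28 ± 0.11, adjusted p = 8.11e-11). *Atp6v0b* (subunit c″) was 2.57-fold higher, *Atp6v1g1* (subunit G, of the outer stalk) 2.65-fold and *Atp6v1e1* (subunit E, its partner) 2.46-fold. *Atp6v1f* (subunit F, 2.03-fold) and *Atp6v1c1* (subunit C, 2.00-fold) were called close to the limit, and without control_7d their log2 changes were 0.94 and 0.96, under it. The G paralog *Atp6v1g2* had 4 or 5 UMIs in each of the 3 osteoclast-like sums (log2 -0.53 ± 0.49, adjusted p = 0.381). Below the limit in all libraries together were *Atp6v1a*, the catalytic A subunit, at log2 0.86 ± 0.11 (adjusted p = 1.05e-07), the accessory gene *Atp6ap2* at 0.80 and *Atp6v1h*, the regulatory H subunit, at 0.38. The accessory gene *Atp6ap1* had 124 to 188 CPM against 171 to 181 CPM, and these overlapped.

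**Figure D2:**
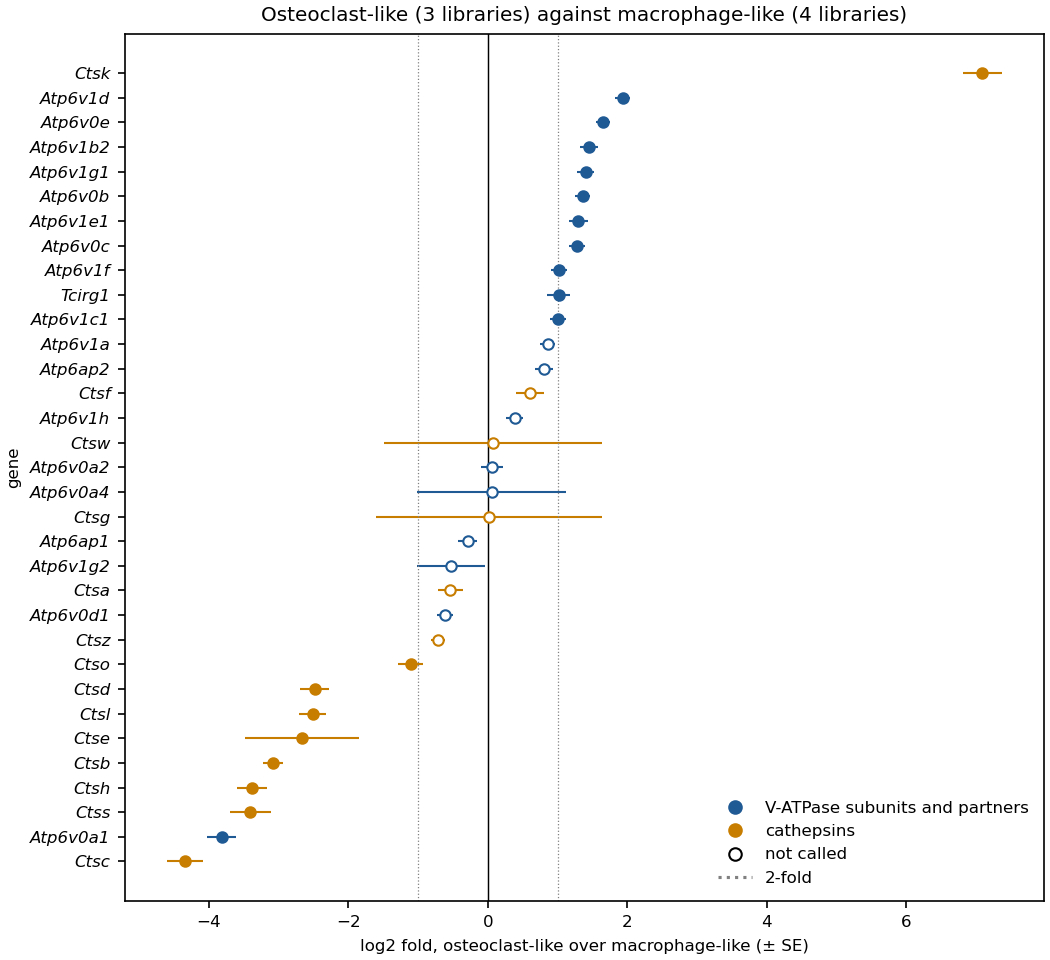
Log2 fold change, with its standard error, of 32 members and of *Tcirg1* in osteoclast-like over macrophage-like cells (edgeR, 3 osteoclast-like and 4 macrophage-like sums); filled points were called, open points were not, and dotted lines mark 2-fold. All called V-ATPase genes but *Atp6v0a1* lie to the right, and all called cathepsins but *Ctsk* lie to the left.

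The paralogs of the a and d subunits did not move together. *Atp6v0a1* (chr11:101009452-101063719, plus strand, GRCm38) encodes the a1 subunit and was the only V-ATPase gene called lower in osteoclast-like cells. It had 11.1, 5.81 and 4.28 CPM in control_4d, control_7d and RA_4d against 84.2 to 101 CPM in macrophage-like cells, a fall of 14.1-fold (log2 -3.81 ± 0.21, adjusted p = 9.54e-15). Its paralog *Tcirg1*, the a3 subunit, had 411, 549 and 401 CPM against 207 to 228 CPM. *Tcirg1* was 2.02-fold higher (log2 1.01 ± 0.17, adjusted p = 1.04e-05 in edgeR), a call close to the limit. *Atp6v0a2* had 25.5 to 30.5 CPM in osteoclast-like and 22.5 to 30.3 CPM in macrophage-like cells (log2 0.06 ± 0.16, adjusted p = 0.782), and *Atp6v0a4* stayed under 2 CPM in both.

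For subunit d, the ubiquitous *Atp6v0d1* had 126, 131 and 112 CPM in osteoclast-like cells and 174 to 196 CPM in macrophage-like cells. The groups did not overlap, but the change was under 2-fold (log2 -0.62 ± 0.12, adjusted p = 5.01e-05). *Atp6v0d2* (chr4:19876841-19922605, minus strand) had 844, 985 and 673 CPM in the gated cells and 29.6 to 73.1 CPM in macrophage-like cells, as a description, since it was part of the gate. With a gate of *Mmp9* and *Acp5* alone, 277 cells passed in place of 249. In those cells *Atp6v0d2* had 776, 947 and 639 CPM in the 3 libraries, a log2 change of 3.95 ± 0.39 (adjusted p = 1.64e-08). Among pooled macrophage-like cells, 18.1% had an *Atp6v0d2* UMI, or 10.2% with each cell thinned to 4000 UMIs. The share was 0.888% in thinned T or NK-like cells, a class that should lack the gene. The 95% exact intervals were 9.45% to 10.95% and 0.326% to 1.92%. These intervals count pooled cells and do not cover variation between libraries. By library, the thinned share ran from 5.56% (RA_4d) to 13.2% (control_7d) in macrophage-like cells. For T or NK-like cells it ran from 0% (RA_7d) to 2.35% (control_4d). Median depth was 13022 UMIs in macrophage-like and 7342.5 in T or NK-like cells.

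**Figure D3:**
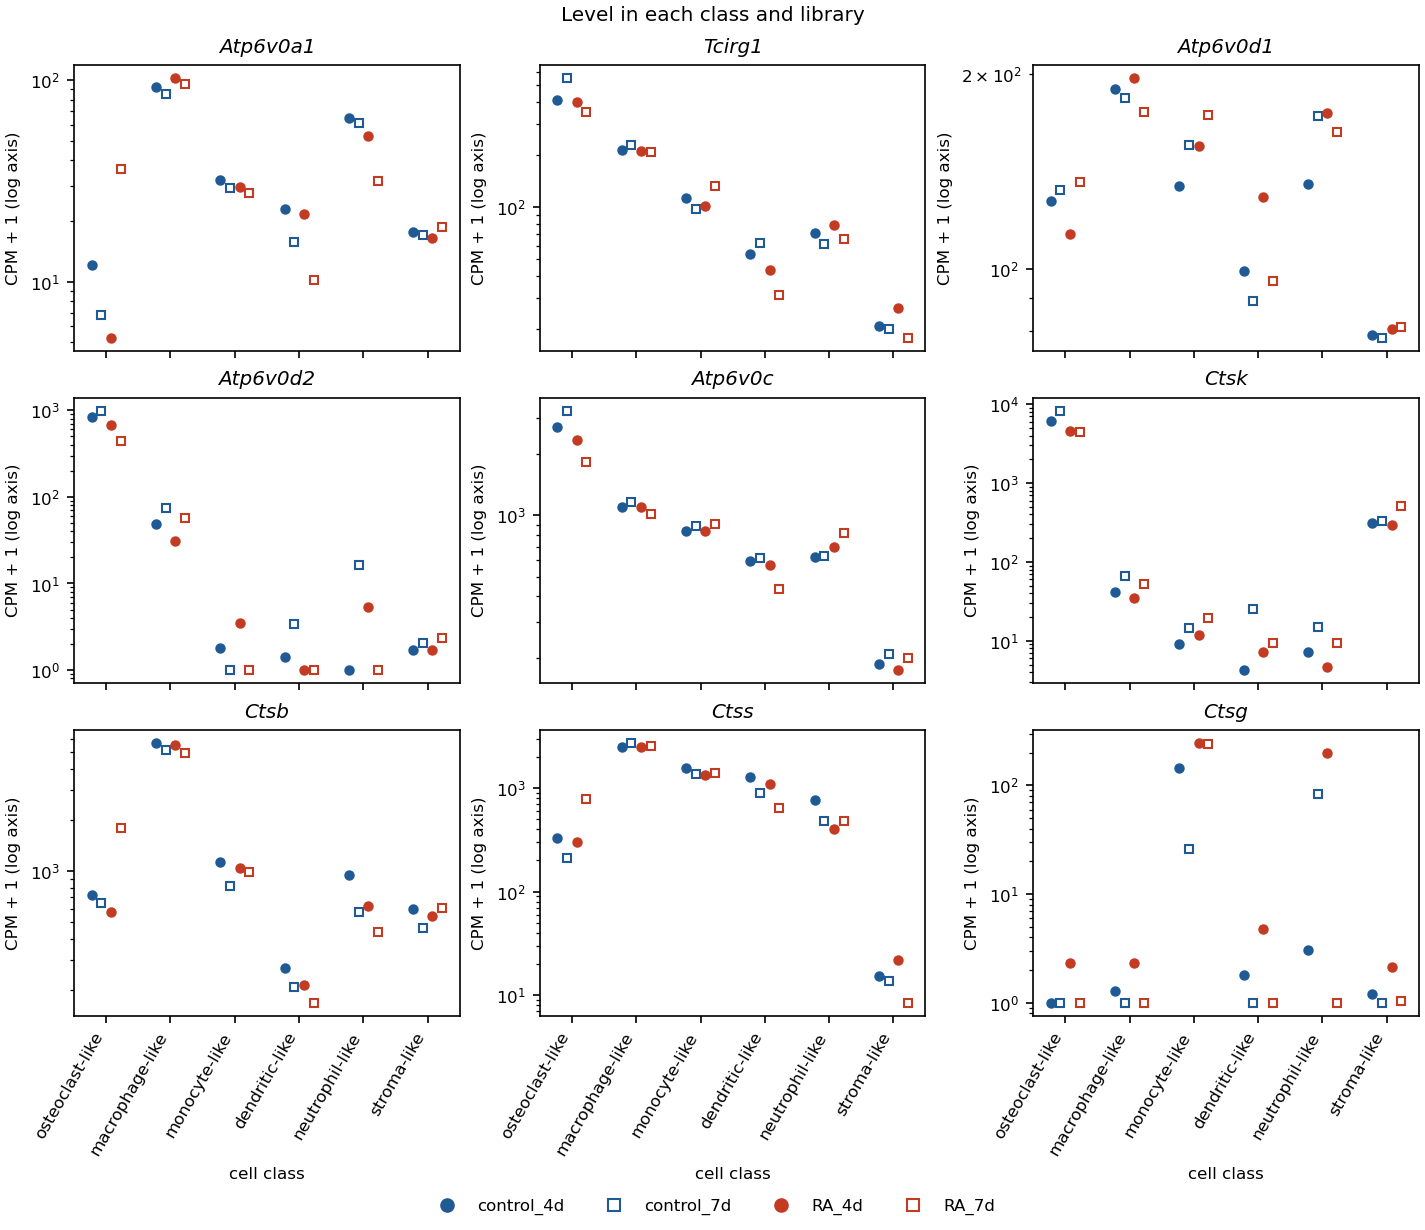
Level of 9 genes in 6 cell classes, 1 point per library (circles 4 dpf, squares 7 dpf; blue control, red RA), as CPM plus 1 on a log axis. In osteoclast-like cells *Tcirg1*, *Atp6v0d2*, *Atp6v0c* and *Ctsk* lie above and *Atp6v0a1*, *Atp6v0d1*, *Ctsb* and *Ctss* below the macrophage-like points in control_4d, control_7d and RA_4d; the osteoclast-like RA_7d points rest on 6 cells.

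Among the cathepsins, *Ctsk* alone was called higher. *Ctsk* (chr3:95499256-95509362, plus strand) encodes the collagen-cutting protease of osteoclasts. It had 6144 CPM in control_4d, 8241 in control_7d and 4622 in RA_4d in osteoclast-like cells, and 33.9 to 65.7 CPM in macrophage-like cells. The difference was 136-fold (log2 7.09 ± 0.28, adjusted p = 2.02e-15), the largest among the members in either direction. After thinning, 93.2% of osteoclast-like cells had a *Ctsk* UMI, against 72.1% of stroma-like, 9.93% of macrophage-like and 4.14% of T or NK-like cells.

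*Ctss*, which encodes a protease of antigen presentation, lies next to *Ctsk* on chromosome 3 (chr3:95526786-95556403, plus strand) and fell. It had 329, 211 and 298 CPM in the 3 osteoclast-like sums and 2500 to 2702 CPM in the macrophage-like ones, a 10.6-fold difference (log2 -3.41 ± 0.29, adjusted p = 1.25e-09). *Ctsc*, which activates serine proteases of granules, had 65.4, 40.2 and 41.7 CPM against 884 to 957 CPM and was 20.3-fold lower (adjusted p = 6.66e-13). *Ctsb*, an abundant lysosomal cysteine protease, had 722, 651 and 577 CPM against 4968 to 5639 CPM and was 8.46-fold lower (adjusted p = 3.20e-16). None of these overlapped between the groups. *Ctsh* was 10.5-fold lower, *Ctsl* 5.71-fold and *Ctsd*, the aspartic protease of lysosomes, 5.58-fold.

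Calls at the edge were those of *Ctso* and *Ctse*. *Ctso* was 2.15-fold lower, and without RA_4d its log2 change was -0.86, under the limit. *Ctse* had 1 UMI or none in each osteoclast-like sum and 0.666 to 2.02 CPM in macrophage-like cells, and its call was lost without control_4d or without RA_4d. *Ctsz* (log2 -0.71 ± 0.10) and *Ctsa* (-0.54 ± 0.18, adjusted p = 0.0144) were lower by less than 2-fold. *Ctsf*, at 10.7 to 12.6 CPM in osteoclast-like and 7.18 to 12.9 CPM in macrophage-like cells, was not called.

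Among the other genes of the lysosome, calls went in both directions, where 10.6% of all genes were called higher and 16.6% lower. Of 20 lysosomal hydrolases, 9 were lower, 1 was higher and 10 were not called (median log2 -0.73). *Lipa*, which cleaves cholesteryl esters, fell by 4.11 on the log2 scale, and *Lgmn*, which processes cathepsins, fell by 3.73. The sulfatase gene *Arsb* rose by 3.89. Of 15 lysosome partners, 4 were lower and 2 were higher (median log2 -0.33). *Lamp1*, *Lamp2* and *Scarb2*, the main membrane proteins of lysosomes, fell by 3.48, 3.48 and 3.20. *Snx10*, a sorting nexin that osteoclasts need, rose by 2.09, and *Tcirg1* was the other that rose.

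The shares over all genes, 10.6% higher and 16.6% lower, also stand beside the next lists. Of 9 V-ATPase assembly genes, none was higher and 2 were lower, *Dmxl2* (log2 -1.77) and *Ncoa7* (-1.43), while *Oxr1* (0.92) stayed under the limit. Of 12 cathepsin inhibitors, *Cst7* was higher (3.46) and *Serpinb9* (-3.31) and *Serpinb6a* (-2.87) were lower. Of 6 transcription factors, *Nfatc1*, the regulator of osteoclast differentiation, was higher (3.74 ± 0.17), and *Tfe3* (-1.19) and *Mitf* (-1.10), factors of the family that binds lysosomal promoters, were lower. Of the 7 tested osteoclast genes outside the gate, 6 were higher, led by *Oscar* (7.16), *Car2* (6.64), which encodes the carbonic anhydrase that supplies protons, and *Ocstamp* (6.01). *Tnfrsf11a* was not called, and *Calcr* failed the filter on low counts.

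The letters of the CLEAR-type E-box, TCACGTGA, a sequence known to be bound by factors such as TFEB and MITF, were searched in promoter windows from RefSeq (GRCm38.p6), each of 250 bases before to 50 after a start site. The motif reads the same on both strands. It occurred in 5 of 33 members with a window, or 15.2%, and in 1.12% of all 27025 genes with one. Of the 44 members, 33 is also the number that passed the filter on low counts. The 27025 genes were not restricted to the 13933 that passed it, so the shares may rest on unlike sets. The stretches are shown because these 5 genes did not move together. The motif is in capitals with 10 bases to each side, in the direction of the gene.
Ctsa, first site: gagcaaactgTCACGTGAtgcagatgct
Ctsa, other site: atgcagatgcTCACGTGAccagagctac
Ctsd: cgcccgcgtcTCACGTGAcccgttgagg
Atp6v0d1: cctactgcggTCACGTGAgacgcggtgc
Atp6v1a: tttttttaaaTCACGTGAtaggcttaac
Atp6v0e: agcgcgccgaTCACGTGAgcctctgttg
The stretches lie at chr2:164833750-164833777 and chr2:164833767-164833794 (*Ctsa*, plus strand), chr7:142387909-142387936 (*Ctsd*, minus), chr8:105566051-105566078 (*Atp6v0d1*, minus), chr16:44139374-44139401 (*Atp6v1a*, minus) and chr17:26676388-26676415 (*Atp6v0e*, plus). In osteoclast-like against macrophage-like cells, *Atp6v0e* was called higher (log2 1.65), *Ctsd* was called lower (-2.48), and *Atp6v1a* (0.86), *Ctsa* (-0.54) and *Atp6v0d1* (-0.62) moved by less than 2-fold. A match of letters is a description and not a binding site.

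Osteoclast-like cells differed among themselves in their myeloid markers. In RA_4d, 43 gated cells had few UMIs of the pan-myeloid genes *Tyrobp*, *Fcer1g*, *Lyz2* and *Laptm5* and 62 had more, and in control_4d these numbers were 14 and 55. *Ctsk* was at 2963 CPM in the former and 5674 CPM in the latter in RA_4d, and at 5374 and 6338 CPM in control_4d. *Atp6v0c* was at 1804 and 2682 CPM in RA_4d, and *Tcirg1* at 351 and 434 CPM. *Ctsb* (544 and 598 CPM) and *Ctss* (270.4 and 315 CPM) in RA_4d were below every macrophage-like value in both sets of cells. These are values of single libraries, without a test. When gated cells were restricted to those with myeloid markers, 11 members were called higher and 8 lower, against 1439 and 2194 of 13539 genes. When every cell was thinned to 4000 UMIs before the gate, 92 cells passed. Of the members, 13 were called higher and 8 lower in them, against 1409 and 2206 of 13521 genes. In those cells *Atp6v1a* (log2 1.22), *Atp6ap2* (1.06) and *Ctsf* (1.35) were past the limit, and *Ctso* (-0.72) was not.

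Macrophage-like cells had more of most members than stroma-like cells, the matrix-forming cells of callus. Of 33 tested members, 24 were higher in macrophage-like cells, 4 were lower and 5 were not called, where 18.7% of all genes were called higher and 25.3% lower. Of 19 V-ATPase genes, 15 were higher and 1 was lower, and of 14 cathepsins, 9 were higher and 3 were lower. The median log2 change was 1.79 over V-ATPase genes, 1.96 over cathepsins and -0.03 over all genes.

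*Ctss* differed most. It had 2500, 2702, 2504 and 2555 CPM in macrophage-like cells of control_4d, control_7d, RA_4d and RA_7d, and 7.50 to 20.7 CPM in stroma-like cells (log2 7.70 ± 0.31, adjusted p = 3.52e-16). *Atp6v0d2* was 52.4-fold higher in macrophage-like cells (log2 5.71 ± 0.43), *Ctse* 28.7-fold (4.84), from a stroma-like level of 0 to 5 UMIs per library, *Ctsc* 16.1-fold (4.01) and *Ctsd* 10.6-fold (3.41). Among the other called subunits the rise ran from log2 1.31 for *Atp6v0d1* to 2.93 for *Atp6v1c1*. *Atp6v0a2* (-0.36), *Atp6v0e* (0.94) and *Atp6v1g2* (0.33) were not called.

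The 4 members that were higher in stroma-like cells were *Atp6v0a4*, *Ctsk*, *Ctsf* and *Ctsw*. *Ctsk* had 311, 333, 291 and 505 CPM in stroma-like cells of control_4d, control_7d, RA_4d and RA_7d, against 33.9 to 65.7 CPM in macrophage-like cells, a 7.31-fold difference (log2 -2.87 ± 0.23, adjusted p = 5.33e-11). Its level thus ordered osteoclast-like, stroma-like, macrophage-like and then the other classes, and the first 3 did not overlap. *Ctsf*, a lysosomal cysteine protease, had 28.6 to 49.1 CPM in stroma-like cells and was 3.81-fold lower in macrophage-like cells. *Atp6v0a4*, the a4 subunit known from kidney, had 7.82 to 17.7 CPM in stroma-like and 0.109 to 1.55 CPM in macrophage-like cells (25.4-fold, adjusted p = 6.22e-11). *Ctsw* was under 1 CPM in both.

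Most called hydrolases and lysosome partners were higher in macrophage-like cells, where 18.7% of all genes were called higher and 25.3% lower. Of 20 hydrolases, 16 were higher and 2 were lower, led by *Lgmn* (log2 4.17), *Psap* (3.37) and *Lipa* (3.34). Of 15 lysosome partners, 12 were higher and 1 was lower, led by *Tcirg1* (3.50), *Plekhm1* (3.12) and the chloride exchanger gene *Clcn7* (2.23). Of 9 assembly genes, 6 were higher, led by *Dmxl2* (3.14), *Ccdc115* (1.98) and *Dmxl1* (1.82). Of 6 transcription factors, 5 were higher, with *Tfec* (8.04), *Spi1* (7.24) and *Tfeb* (1.68) moving most. Of 12 cathepsin inhibitors, 2 were higher and 4 were lower (median log2 -0.62), not far from the shares over all genes. Among them *Serpina3n* (-7.52), *Cst6* (-4.43) and *Cst7* (4.24) differed most. Of 7 osteoclast genes outside the gate, 4 were higher and 2 were lower.

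Within the stroma-like class, *Atp6v0a4* was highest in cells with the tendon markers *Scx*, *Tnmd* and *Mkx*. It had 59.1, 30.0, 153 and 73.1 CPM there in control_4d, control_7d, RA_4d and RA_7d, and 0 to 11.1 CPM in every other stroma-like group with at least 20 cells. All 4 tendon values lay above all others. The libraries of 7 dpf had at least 20 cells in all 7 groups. *Ctsk* was spread over them, from 309 CPM in cells of no named group to 559 CPM in tendon cells in control_7d, and from 365 CPM in osteogenic to 686 CPM in tendon cells in RA_7d. *Ctsl* was highest in fibroblasts in both, at 658 and 807 CPM, and *Ctsd* in tendon cells, at 374 and 388 CPM.

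Macrophage-like cells were divided by *Arg1*-associated, resident and MHC class II genes, in a range without sharp borders, since 905 cells lay near the limit between the first 2 and 344 near that of MHC class II. *Ctsd* had 3237 to 4642 CPM in *Arg1*-high cells, 2241 to 2926 in resident-like and 1496 to 1863 in MHC class II-high cells, without overlap. *Ctsl* was at 1652 to 2394, 1082 to 1556 and 792 to 1072 CPM in the same order, again without overlap. *Atp6v0d2* had 61.6 to 133 CPM in *Arg1*-high and 11.03 to 35.5 CPM in resident-like cells, while MHC class II-high cells, at 18.7 to 85.0 CPM, overlapped both. *Ctsc* ran in the other direction, from 628 to 784 CPM in *Arg1*-high cells to 1098 to 1237 CPM in resident-like cells. *Atp6v0c* differed little, at 973 to 1230 CPM over all 3.

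**Figure D4:**
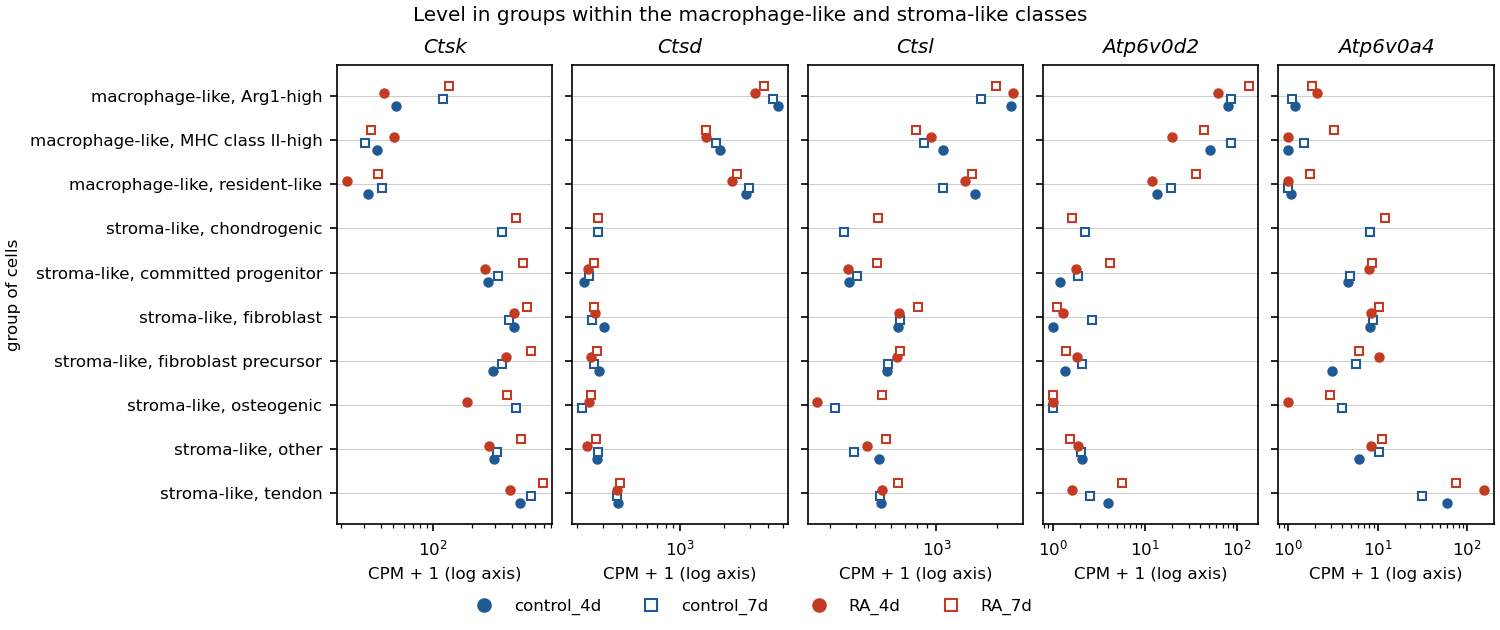
Level of 5 members in groups of cells within the macrophage-like and stroma-like classes, 1 point per library with at least 20 cells in the group (circles 4 dpf, squares 7 dpf; blue control, red RA), as CPM plus 1 on a log axis. *Ctsd* and *Atp6v0d2* are highest in *Arg1*-high macrophage-like cells by mean, and the 4 tendon points of *Atp6v0a4*, at 30.0 to 153 CPM, lie apart from those of all other groups.

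Monocyte-like cells, the recruited precursors of macrophages, had lower levels of many members than macrophage-like cells. Of 33 members, 2 were higher, 11 were lower and 20 were not called, against 6.43% of all genes higher and 10.6% lower. *Atp6v0d2* was nearly absent, with 0 to 7 UMIs per library against 564 to 1754 in macrophage-like cells. *Ctsb* had 1135, 814, 1047 and 983 CPM in the 4 libraries, 5.46-fold below macrophage-like cells (adjusted p = 6.09e-15), and *Ctsd* was 4.86-fold lower. *Ctsk* was 3.76-fold lower, at 8.16 to 18.4 CPM, and *Ctsf* had 0 to 5 UMIs per library. *Ctss* (log2 -0.90) and *Ctsc* (-0.39) were not called. Of V-ATPase genes, *Atp6v0a1* (3.29-fold), *Atp6v1a* (2.16-fold), *Atp6v1h* (2.15-fold) and *Atp6v1c1* (2.05-fold) were also lower. *Atp6v1c1* was not called without control_4d, control_7d or RA_4d (log2 -0.96, -0.96 and -0.98). With only the 2 classes in the fit, *Atp6v1a* (-0.985), *Atp6v1h* (-0.984) and *Atp6v1c1* (-0.919) fell under the limit. With cells thinned, *Atp6v1h* (-0.947) and *Atp6v1c1* (-0.987) did.

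*Ctsg* encodes cathepsin G, a serine protease of granules. In monocyte-like cells it had 144 CPM at 4 dpf and 25.1 CPM at 7 dpf in control, and 243 and 238 CPM in RA, against 0 to 1.31 CPM in macrophage-like cells (log2 8.85 ± 0.82, adjusted p = 3.24e-08). The UMIs came from 29 of 506 cells. Neutrophil markers summed to 1957 to 6558 CPM in monocyte-like cells and to 226393 to 261986 CPM in neutrophil-like cells, where *Ctsg* had 2.07, 81.7 and 199 CPM in control_4d, control_7d and RA_4d. Their part in the result was not tested. *Ctse* was 7.56-fold higher in monocyte-like cells, at 9.20 to 15.5 CPM. Of the classes in the heat map, *Ctse* was highest in T or NK-like cells, at 29.3 to 42.4 CPM. Erythroid markers summed to 1480 to 2551 CPM in 3 of the monocyte-like sums and to 5.34 CPM in RA_4d, where *Ctse* was 9.61 CPM. The part of erythroid RNA in the *Ctse* result was not tested.

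Dendritic-like cells, which present antigen, had the lowest *Ctsb*, *Ctsd* and *Ctsl* of the 5 myeloid classes in every library with at least 20 cells. Of 33 members, 3 were higher than in macrophage-like cells, 16 were lower and 14 were not called, against 10.8% of all genes higher and 14.7% lower. *Ctsd* had 122, 78.3, 78.0 and 35.2 CPM in the 4 libraries (32.1-fold lower, adjusted p = 1.27e-15), *Ctsb* 168 to 270 CPM (23.2-fold lower) and *Ctsl* 52.0 to 113 CPM (17.3-fold lower). *Ctsf* had 1 or 2 UMIs per library and *Atp6v0d2* 0 to 2. *Ctsh*, at 308 to 535 CPM, overlapped the 432 to 563 CPM of macrophage-like cells (log2 -0.16 ± 0.17). Of V-ATPase genes, 7 were lower, including *Atp6v1a* (5.81-fold) and *Atp6v1b2* (4.44-fold), and *Atp6v0a2* alone rose, at 46.9 to 71.8 CPM (2.55-fold, adjusted p = 6.61e-09). *Ctse* rose 10.6-fold, at 9.36 to 22.02 CPM. *Ctsw*, though called, was at 2.45 CPM or less. *Ctso* was 2.16-fold lower and was not called without control_7d (log2 -0.998). *Atp6v1e1* (log2 -0.99) was called without control_4d (-1.05) or without RA_4d (-1.11), and *Atp6v1g2*, at 8 UMIs in control_4d and 0 in the others, was called without control_4d.

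Neutrophil-like cells had lower cathepsins and mostly uncalled V-ATPase genes. Of 14 cathepsins, 11 were lower and 2 were higher than in macrophage-like cells, and of 19 V-ATPase genes, 4 were lower and 15 were not called. Over all genes, 11.6% were called higher and 18.0% lower. Higher calls made up 39.1% of all calls, against 26.3% with library totals alone and 49.8% in DESeq2. *Ctsb* had 952, 576 and 626 CPM in control_4d, control_7d and RA_4d (6.51-fold lower, adjusted p = 3.25e-15), *Ctss* was 4.57-fold lower and *Ctsk* 5.80-fold lower. *Ctsf* had 1 UMI in all, and *Atp6v0d2* 0 to 17 UMIs per library. *Ctsg* (log2 8.24 ± 0.94) and *Ctse* (3.79) were higher. In control_4d *Ctsg* rested on 1 UMI, in RA_4d on 769. After thinning, 9.84% of neutrophil-like cells had a *Ctsg* UMI, against 0.296% of T or NK-like cells.

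Of the pathway lists, hydrolases had 13 of 20 genes lower in monocyte-like, 16 in dendritic-like and 15 in neutrophil-like cells, and 0, 1 and 1 higher. Over all genes, 10.6%, 14.7% and 18.0% were called lower and 6.43%, 10.8% and 11.6% higher. *Acp2*, a lysosomal acid phosphatase, fell by 2.30, 3.54 and 2.73 on the log2 scale, and *Lgmn* fell by 2.13, 3.66 and 2.72. Of 15 lysosome partners, 4, 9 and 9 were lower, and *Tcirg1* was among them in dendritic-like and neutrophil-like cells. *Cd63*, a membrane protein of lysosomes, fell by 3.36 in monocyte-like and by 4.72 in dendritic-like cells. Of 9 assembly genes, 1, 5 and 2 were lower and 0, 2 and 1 higher, and of 6 transcription factors, 1, 2 and 2 were lower, among them *Mitf* in all 3 classes. Of 7 osteoclast genes outside the gate, 1, 3 and 1 were higher and 1, 1 and 2 lower. Of 12 cathepsin inhibitors, 4, 5 and 5 were higher and 2, 2 and 4 lower, and *Stfa1*, a stefin of neutrophils, rose by 6.23 in monocyte-like and by 13.63 in neutrophil-like cells. The 3 comparisons share the macrophage-like sums.

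*Ctsw*, a cathepsin of cytotoxic lymphocytes, had 270.4, 218, 178 and 215 CPM in T or NK-like cells of control_4d, control_7d, RA_4d and RA_7d, and at most 2.55 CPM in the other 7 classes of the heat map. A UMI of it occurred in 68.6% of T or NK-like cells. Of the 44 members, 11 failed the filter on low counts. *Ctsj*, *Ctsm* and *Ctsr* had no UMI and *Ctsq* had 1 UMI in all kept cells, where the 3 UMIs that a count of 0 allows stand against 490126591 in all. These 4 belong to the cathepsins known from rodent placenta. The other 7 were V-ATPase genes with 13 to 505 UMIs, the paralogs *Atp6v0e2*, *Atp6v1b1*, *Atp6v1c2*, *Atp6v1e2* and *Atp6v1g3*, the gene *Atp6ap1l*, and *Atp6v1fnb*, which is named for its place beside *Atp6v1f* and is not a subunit.

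The study set RA against control callus at each time. With 1 library on each side, ratios are given with the 95% exact interval for counting error, which does not cover variation between pools. In macrophage-like cells, none of the 30 members with at least 50 UMIs differed 2-fold on the log2(CPM + 1) scale at 4 dpf and none of 29 at 7 dpf, where 0.273% and 1.10% of all such genes were at least 2-fold higher and 0.522% and 0.538% lower. The median log2 ratio was -0.02 and -0.04 over members, and 0.01 and 0.00 over all genes. *Ctsd* was lower in RA at both times, from 3282 to 2418 CPM at 4 dpf (ratio 0.737, 0.729 to 0.745) and from 2944 to 2178 CPM at 7 dpf (0.740, 0.730 to 0.750). *Atp6v0d2* was also lower at both, from 47.9 to 29.6 CPM (0.618, 0.561 to 0.679) and from 73.1 to 56.5 CPM (0.773, 0.709 to 0.843). The ratios of *Ctsk* were 0.846 and 0.777. At 4 dpf, *Ctse* (0.701, 0.433 to 1.10), *Atp6v0e* (0.819) and *Atp6v0a2* (1.21) completed the 5 members with the largest change on the log2(CPM + 1) scale, and at 7 dpf *Ctsf* (1.57, 1.27 to 1.94), *Ctsk* and *Atp6v1g1* (0.828) did. On CPM alone, *Atp6v1g2* at 4 dpf (1.24, 0.839 to 1.83, from 71 and 46 UMIs) also exceeded *Atp6v0a2*.

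Within groups of macrophage-like cells, *Atp6v0d2* was not lower in RA throughout. In *Arg1*-high cells it went from 78.9 to 61.6 CPM at 4 dpf and from 84.7 to 133 CPM at 7 dpf, and in resident-like cells from 12.4 to 11.03 and from 18.1 to 35.5 CPM. In MHC class II-high cells it went from 50.7 to 18.7 and from 85.0 to 42.8 CPM. *Arg1*-high cells were 872 of 2220 macrophage-like cells in control and 425 of 1204 in RA at 4 dpf, and 676 of 1853 and 186 of 1105 at 7 dpf. *Ctsk* had a ratio of 0.819, 1.34 and 0.681 in *Arg1*-high, MHC class II-high and resident-like cells at 4 dpf and of 1.11, 1.11 and 0.920 at 7 dpf. *Ctsd* was lower in RA in all 3 groups at both times, for instance from 4642 to 3237 CPM in *Arg1*-high cells at 4 dpf and from 4292 to 3752 CPM at 7 dpf.

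In stroma-like cells, none of 30 members at 4 dpf and none of 34 at 7 dpf differed 2-fold on the log2(CPM + 1) scale, where 0.787% and 1.55% of genes were higher and 0.822% and 1.08% lower. The median log2 ratio was -0.10 and 0.16 over members, and 0.04 and -0.03 over all genes. On CPM alone, 2 members were past 2-fold at 7 dpf, *Atp6v0e2* (ratio 3.54, 2.29 to 5.64, from 26 and 114 UMIs) and *Atp6v1c2* (0.487, 0.296 to 0.789, from 48 and 29 UMIs), where 3.38% of genes were higher and 3.16% lower. Both were under 2 CPM in each library. The 5 largest changes on the log2(CPM + 1) scale at 4 dpf were those of *Atp6v0a4*, *Ctsc*, *Ctss* (1.46), *Atp6v0e2* (0.612, from 39 and 19 UMIs) and *Atp6ap2* (0.829). At 7 dpf they were those of *Atp6v0e2*, *Ctss* (0.595), *Atp6v0a4*, *Ctsf* (1.57) and *Atp6v1b2* (1.57). *Ctss* was low, at 14.2 CPM in control and 20.7 in RA at 4 dpf, and 12.6 and 7.50 CPM at 7 dpf. Pan-myeloid markers in the same sums were at 70.1 and 62.0 CPM at 4 dpf, and 67.9 and 39.6 CPM at 7 dpf. The part of myeloid RNA in the *Ctss* ratios was not tested. *Atp6v0a4* had a ratio of 1.66 (1.43 to 1.93) at 4 dpf and 1.63 (1.47 to 1.80) at 7 dpf. *Ctsk* had a ratio of 0.934 (0.905 to 0.964) at 4 dpf and 1.51 (1.49 to 1.54) at 7 dpf, from 333 to 505 CPM. *Ctsl* (1.46), *Ctsh* (1.43) and *Ctsb* (1.32) were also higher in RA at 7 dpf, and all 3 were lower at 4 dpf (0.950, 0.884 and 0.904). *Ctsc* went the other way, with 1.51 at 4 dpf and 0.690 at 7 dpf.

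The makeup of the stroma-like class differed between the libraries, and values within groups stand beside these. At 7 dpf, *Ctsk* was higher in RA in 6 of the 7 stroma-like groups, among them committed progenitors (314 to 484 CPM), fibroblast precursors (334 to 560.2 CPM) and tendon cells (559 to 686 CPM), and lower in osteogenic cells (428 to 365 CPM, the latter from 23 cells). In tendon cells, where *Atp6v0a4* was highest, it went from 59.1 to 153 CPM at 4 dpf (ratio 2.59, 2.14 to 3.13, from 198 and 254 UMIs) and from 30.0 to 73.1 CPM at 7 dpf (2.44, 1.98 to 3.01, from 118 and 452 UMIs). In committed progenitors the ratio of *Atp6v0a4* was 1.93 (1.25 to 3.01) and 1.94 (1.52 to 2.51). Elsewhere at 7 dpf it was 1.53 (1.10 to 2.12) in chondrogenic cells and 1.20 (0.675 to 2.29) in fibroblasts. It was 1.10 (0.611 to 2.13) in fibroblast precursors and 1.09 (0.919 to 1.29) in cells of no named group. In cells of no named group at 4 dpf it was 1.42 (0.893 to 2.29). No share of all genes stands beside these ratios within groups. Fibroblast precursors numbered 114 of 2968 stroma-like cells in control_7d and 701 of 3781 in RA_7d, and chondrogenic cells 448 and 231.

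**Figure D5:**
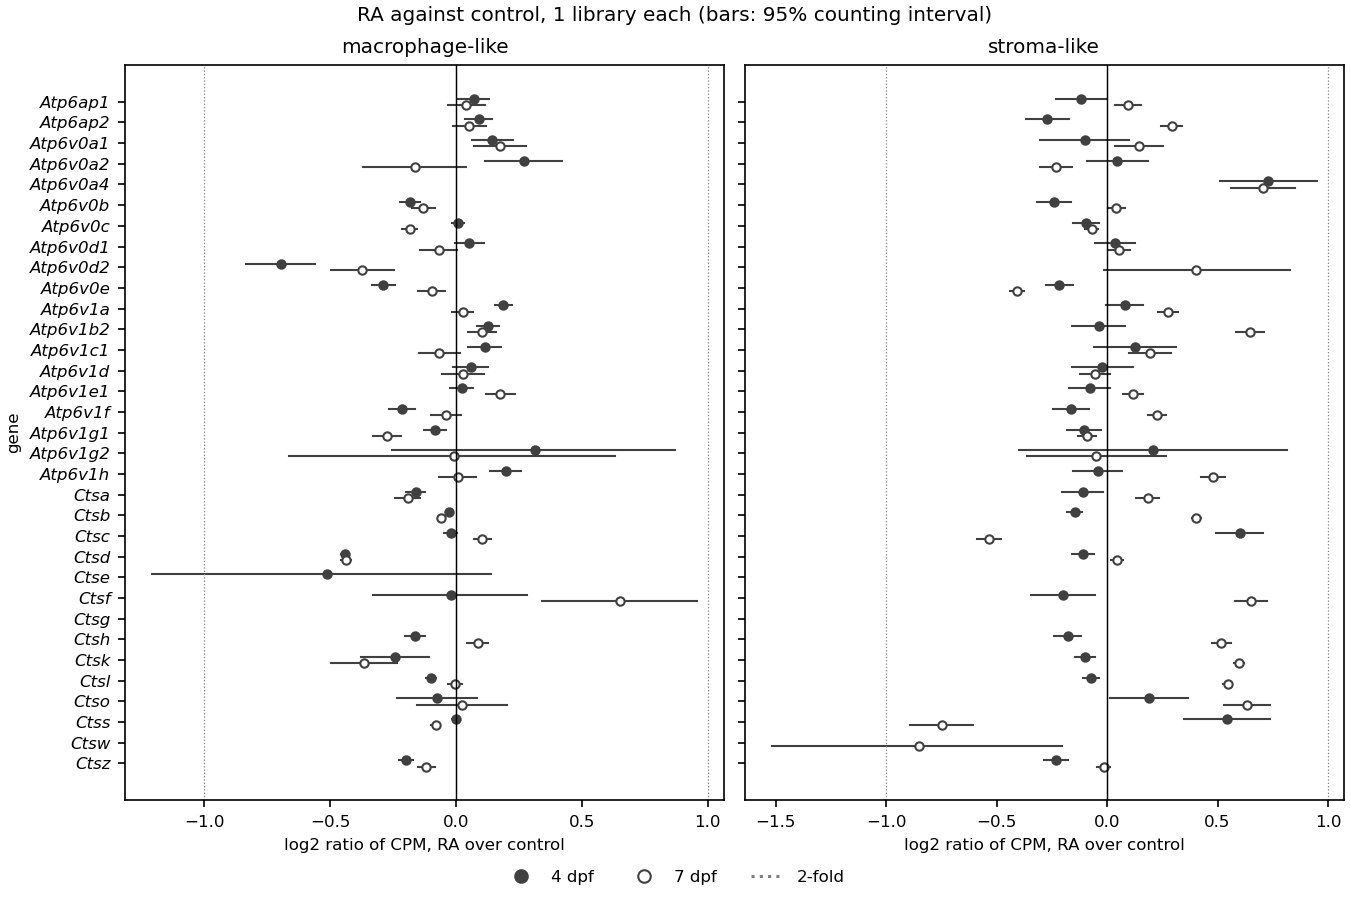
Log2 ratio of CPM, RA over control, of members that passed the filter on low counts and had at least 50 UMIs over both libraries, in macrophage-like (left) and stroma-like (right) cells at 4 dpf (filled) and 7 dpf (open); bars are 95% counting intervals from 1 library on each side and dotted lines mark 2-fold. All points lie between the lines in both classes; *Atp6v0e2* and *Atp6v1c2*, which failed that filter, are not drawn.

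In osteoclast-like cells at 4 dpf, none of 27 members differed 2-fold between 69 control and 105 RA cells, where 0.467% of genes were higher and 0.651% lower. The median log2 ratio was -0.26 over members and 0.03 over all genes. *Ctsk* was at 6144 CPM in control_4d and 4622 CPM in RA_4d (ratio 0.752, 0.736 to 0.769). The 5 largest changes on the log2(CPM + 1) scale were those of *Ctso* (0.597), *Ctsc* (0.638), *Atp6v1g1* (0.681, 0.644 to 0.721), *Ctsl* (0.708) and *Ctsh* (0.705). Gated cells with few pan-myeloid markers were 43 of 105 in RA_4d and 14 of 69 in control_4d, and *Ctsk* was lower in RA within both sets. At 7 dpf, the 6 gated cells of RA_7d gave 5 members past 2-fold of 25, with *Ctss* (3.71), *Ctsb* (2.75) and *Ctsl* (2.66) higher and *Atp6v1d* (0.382) and *Atp6v0d2* (0.447) lower, while 9.41% of genes were higher and 10.1% lower. Stroma markers (6773 against 803 CPM) and pan-myeloid markers (8841 against 3511 CPM) were also higher in that sum than in control_7d, and their part in the result was not tested.

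Both times were also fitted together in edgeR, with day as the block, on the 4 class sums. The fit has 1 residual degree of freedom and shares its spread over genes, and it was added after seeing the data. In macrophage-like cells no member of 30 was called, where 0.00713% of 14032 genes were called higher and 0.00713% lower. An unadjusted p under 0.05 was reached by 3 of the 30 members and by 928 of the 14032 genes. The 3 members were *Ctsd* (log2 -0.46 ± 0.10 SE, adjusted p = 0.447), *Atp6v0d2* (-0.56 ± 0.12, adjusted p = 0.483) and *Ctsk* (-0.33 ± 0.11, adjusted p = 0.671), lower in RA at both times. In stroma-like cells no member of 36 was called and 2 had an unadjusted p under 0.05, *Atp6v0a4* (0.70 ± 0.16, adjusted p = 0.965) and *Ctsg* (2.56 ± 0.75, adjusted p = 0.965), while 0% of 18202 genes were called and 679 had an unadjusted p under 0.05. A *Ctsg* UMI occurred in 3.37% of stroma-like cells of RA_4d and in at most 0.638% in any other library. Neutrophil markers summed to 112 CPM in stroma-like cells of RA_4d and to 14.6 to 25.6 CPM in the others. Their part in the *Ctsg* result was not tested. Without the day term, no member was called in either class.

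Whether class differences themselves differed between RA and control libraries was tested as an interaction in edgeR. The times of a condition served as its replicates. Osteoclast-like sums came from RA_4d alone in RA and from both times in control, so condition and time cannot be fully told apart there. For osteoclast-like against macrophage-like cells, which had 1 RA library and 2 control libraries, no member was called, 2 of 32 (*Atp6v0a1* and *Atp6v1g1*) had an unadjusted p under 0.05, and all adjusted p were 1.00. For macrophage-like against stroma-like cells, with 2 libraries of each condition, no member was called, and 1 of 33, *Ctso*, had an unadjusted p under 0.05. In each test 1 gene of 13933 was called, or 0.00718%, and 413 and 272 genes had an unadjusted p under 0.05. *Ctsd*, lower in RA in macrophage-like cells at both times, had an interaction of -0.45 ± 0.27 (adjusted p = 1.00), and *Ctsk* one of -0.59 in the same test.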

How the data were processed

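Callus cells of 4 libraries were profiled by droplet single-cell RNA sequencing, 1 library per condition and time, each from 1 pool of 4 calluses with 10000 cells loaded. Per the labels and methods, the authors counted UMIs with Cell Ranger 7.0.1 on mm10, and the deposited matrices hold whole UMI counts of each gene in each barcode, without normalization. Cells were kept at 4000 to 50000 UMIs, 2000 to 7000 genes and at most 8% mitochondrial UMIs, as in the study's methods, and Scrublet (scanpy 1.11.5) called 592 doublets, which were kept. Classes were set by the number of marker genes detected and by marker UMIs per cell. The limits were set after the distributions of the markers were seen, and the members, lists and class rules were chosen with earlier results of these data known.

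UMIs were summed per class and library, sums of under 20 cells were left out, and 13933 genes were fitted with edgeR 4.0.16 (R 4.3.3, TMM factors, quasi-likelihood, terms for class and library, 19 residual degrees of freedom). RA was compared with control at each time as a ratio of CPM, called at 2-fold on log2(CPM + 1) with at least 50 UMIs over both libraries. A class by condition term tested the interaction. Intervals are exact 95% intervals and cover counting error only. Genes named with values were all members at 20 CPM or more in some class, the 5 called members that rose most and the 5 that fell most per comparison, paralogs of a subunit, the 3 genes of each list that moved most, gate genes, and the 5 largest RA ratios. In the simulations, a changed gene counted as recovered at an adjusted p under 0.05 in the right direction, without the 2-fold limit. Unchanged genes counted as called only when past both limits. Simulated sums for osteoclast-like against macrophage-like cells held 13697 genes. The fit recovered 36 of 50 genes raised by 1 on the log2 scale and 33 of 50 lowered by 1. It recovered 46 of 46 raised by 2 and 45 of 53 lowered by 2, and called 5 unchanged genes. For RA against control over both times in macrophage-like cells (13734 genes), it recovered 43 of 50 raised by 1 and 31 of 44 lowered by 1. It recovered 47 of 47 raised by 2 and 54 of 59 lowered by 2, and called 4 unchanged genes. Both simulations drew counts from the means and spread fitted to these same sums, with changed genes picked above a minimum mean count. Recovery under the variation between further pools was not tested.

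Alternatives were DESeq2 1.42.0, library totals alone, no filter on low counts, a fit of the 2 classes alone, no library term, leaving out each library, looser cell filters, doublets left out, cells thinned to 4000 UMIs, other gates, another pseudocount, TMM factors for RA ratios and equal weights of groups of cells. Gated cells with myeloid markers only, sums of under 20 cells kept, no pseudocount, and a fit of RA against control over both times with day as the block were added after seeing the data. Gene positions are those of GENCODE M21 on GRCm38, and counts of paralogs could be split by multimapped reads, which Cell Ranger drops.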

Additional observations from a re-analysis of the deposited data

How the results depend on the processing

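No class difference of a called member changed its direction under any alternative. Over all alternatives, the osteoclast-like comparison kept 519 of its single-member results on the same side of the limits, while 16 fell under and 5 rose past them. Without the library term as a block, 9 members were higher and 9 lower in osteoclast-like cells (10 and 9 with it), since *Atp6v1c1* fell under 2-fold, and 3838 genes were called in place of 3795. Genes called without the block numbered 6110, 2366, 3527 and 4122 for the macrophage-like against stroma-like, monocyte-like, dendritic-like and neutrophil-like comparisons, against 6126, 2379, 3552 and 4117 with it. For RA against control with both times in 1 fit, 2 genes were called with day as the replicate block and 0 without it in macrophage-like cells, and 0 with and without it in stroma-like cells. Leaving out a library there leaves no residual degree of freedom, and the osteoclast-like class, with 3 sums, leaves none either.

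Leaving out 1 library gave 8 to 10 members higher and 7 to 9 lower in osteoclast-like cells, with 3525 to 3749 genes called. The macrophage-like against stroma-like comparison kept 24 and 4 members, with 5954 to 6458 genes. Monocyte-like cells had 2 members higher and 10 to 11 lower (2062 to 2322 genes), dendritic-like cells 3 and 15 to 18 (3222 to 3515 genes) and neutrophil-like cells 2 to 3 and 15 (2962 to 4060 genes).

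Without a filter on low counts, 9 members in place of 4 were lower in macrophage-like than in stroma-like cells. Over all genes, 7146 of 26862 were called lower, against 3522 of 13933 with the filter, and 10254 genes were called in all. DESeq2 called 4 members higher in neutrophil-like cells, *Ctsw* and *Atp6v1g2* in addition, and 1944 of 13933 genes in place of 1610. With cells thinned, which leaves fewer UMIs, 1553 of 10526 tested genes were called for monocyte-like and 2552 for neutrophil-like cells. Without thinning these were 2379 and 4117 of 13933. With looser cell filters, 3 members in place of 5 passed 2-fold in osteoclast-like cells at 7 dpf (7 with doublets left out). The 5 stood beside 9.41% of genes higher and 10.1% lower, from 6 cells of RA_7d. Shares of all genes in the other settings are not given here. With the looser filters, the interaction called 0 genes for osteoclast-like and 3 for macrophage-like against stroma-like cells. With no pseudocount, 2 members in place of 0 passed 2-fold in stroma-like cells at 7 dpf, from fewer than 2 CPM. There 3.38% of genes were higher and 3.16% lower. With sums of under 20 cells kept, a setting added after seeing the data, the osteoclast-like interaction also called 0. The cause of these last changes was not tested. The median log2 change of all genes in neutrophil-like cells was -0.34, -0.62 with totals alone and -0.06 in DESeq2, in macrophage-like against stroma-like cells -0.03 and -0.25 in DESeq2, in monocyte-like cells -0.16 and -0.04 in DESeq2, and in dendritic-like cells -0.19, -0.30 with totals alone and -0.02 in DESeq2. Of the single-member RA ratios, 833 moved by less than their counting interval and 140 by more. Osteoclast-like values rest on 249 gated cells in all, 6 of them in RA_7d.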
